A study of Mus musculus with 72 samples.

Results

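Genomic imprinting is the expression of a gene mainly from the copy inherited from 1 parent, set by DNA methylation laid down in the egg or the sperm. Imprinted genes lie in clusters that share a control region, and several of them act on growth, on the placenta and on the developing brain. The set described here held 38 known mouse imprinted genes, listed by symbol, with no measured value in the rule, of 55401 genes in the count table. Of these 38 genes, 21 are listed here under the paternal copy, as mainly expressed from it, and 15 under the maternal copy. Gnas and Grb10 are listed as expressed from either copy by promoter or tissue. The reads were not split by parental allele, so every value is the sum of both copies. The copy in use in these brain samples was not measured.

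RNA was sequenced from right brain hemispheres of C57Bl/6NTac pups (72 libraries, C57Bl/6 in the labels), although the submitters' design text names the cortex and gives a day of collection later by 1 for the older pups. For PND1, dams carried an osmotic minipump delivering morphine, an opioid agonist, at 10 mg/kg/day, or saline, and their pups were collected on postnatal day 1, 6 h after discovery. The PND14 pups themselves received morphine at 10 mg/kg, or saline, 2 times daily by injection, and were collected on postnatal day 14, 6 h after the last dose. The 3-Tri pups had both exposures, or saline for both, and were taken at the same age as PND14 pups. PND1 held 4 morphine libraries coded F, 6 morphine libraries coded M and 7 saline libraries of each code, and every group of PND14 and 3-Tri held 6 libraries. The methods describe transfer to surrogate dams for litters of dams with a minipump, and the pups' litters are not given. Each p-value therefore measures only the spread between these pups, which may share a litter.

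Library totals ran from 20742862 to 27333125 counts in PND1, from 4407544 to 21404819 in PND14 and from 3113919 to 19938980 in 3-Tri. Xist and Ddx3y, a female and a male marker, went against the gender code in 4 PND1 libraries, 0 PND14 libraries and 12 3-Tri libraries, so groups are named by their code and not as females and males. The 12 libraries of 3-Tri were 8 of morphine and 4 of saline. Hox and other hindbrain and spinal cord markers, which a forebrain sample should lack, summed to between 3.82 and 106 CPM (read counts scaled to a common library size with edgeR's TMM factors) in PND1 saline libraries and to between 1.6 and 7.81 CPM in PND14 saline libraries. The sample names of PND14 and 3-Tri open with 1 of 8 numbers, 2 for each drug in each window, so that this number and the drug cannot be told apart beyond 2 numbers per drug.

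The 38 genes took 0.635% ± 0.043 of all counts in PND14 saline libraries (SD, n = 12) and 0.966% ± 0.049 in PND1 saline libraries (SD, n = 14). With morphine the shares were 0.655% ± 0.035 in PND14 (n = 12) and 0.963% ± 0.033 in PND1 (n = 10). Per kb of exon, the level in PND14 saline libraries was highest for Snrpn, a spliceosome protein of neurons, at 143 CPM per kb, followed by Copg2 at 121, Nap1l5 at 97.7, Meg3 at 88.1 and Blcap at 81.4. In PND1 saline libraries it was highest for Nnat at 247 CPM per kb, followed by Blcap at 203, Meg3 at 186, Copg2 at 128 and Snrpn at 70.2. Nnat lies within the span of Blcap, and whether its reads add to the Blcap level was not tested. At the low end stood Phlda2, a regulator of placental growth, which had 46 counts over the 72 libraries, 0 in 46 of them and at most 4 in any. It failed the filter on low counts in every fit. Slc22a18, a transporter of the same cluster, had between 1 and 31 counts per library and did not pass the filter in the 3-Tri fit.

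The first question was how the set differed between the 2 ages in pups that had no morphine. In PND14 saline libraries, against PND1 saline libraries, 23 of 37 genes tested fell and 11 rose at an adjusted p under 0.05 (edgeR's quasi-likelihood F test, Benjamini-Hochberg over 21059 genes), both codes joined. H19, Cdkn1c, Magel2 and Nnat fell most, and Rasgrf1, Impact, Nap1l5 and Zrsr1 rose most. Most genes of the brain differed between these ages: 85.8% of all genes tested were called, 44% lower and 41.9% higher. The 34 of 37 imprinted genes called, or 91.9%, are near that share. The median log2FC of the 37 genes was -0.35, against -0.03 over all genes tested, and the median size of the change, without its sign, was 0.79, against 0.58. Of the genes listed under the maternal copy, 11 of 14 tested fell and 2 rose, with a median log2FC of -0.79. Of those listed under the paternal copy, 11 of 21 fell and 8 rose, with a median of -0.12. The lists are not fully separate. Blcap and Commd1, under the maternal copy, moved with Nnat and Zrsr1, which lie within their spans and are listed under the paternal copy.

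**Figure D1:**
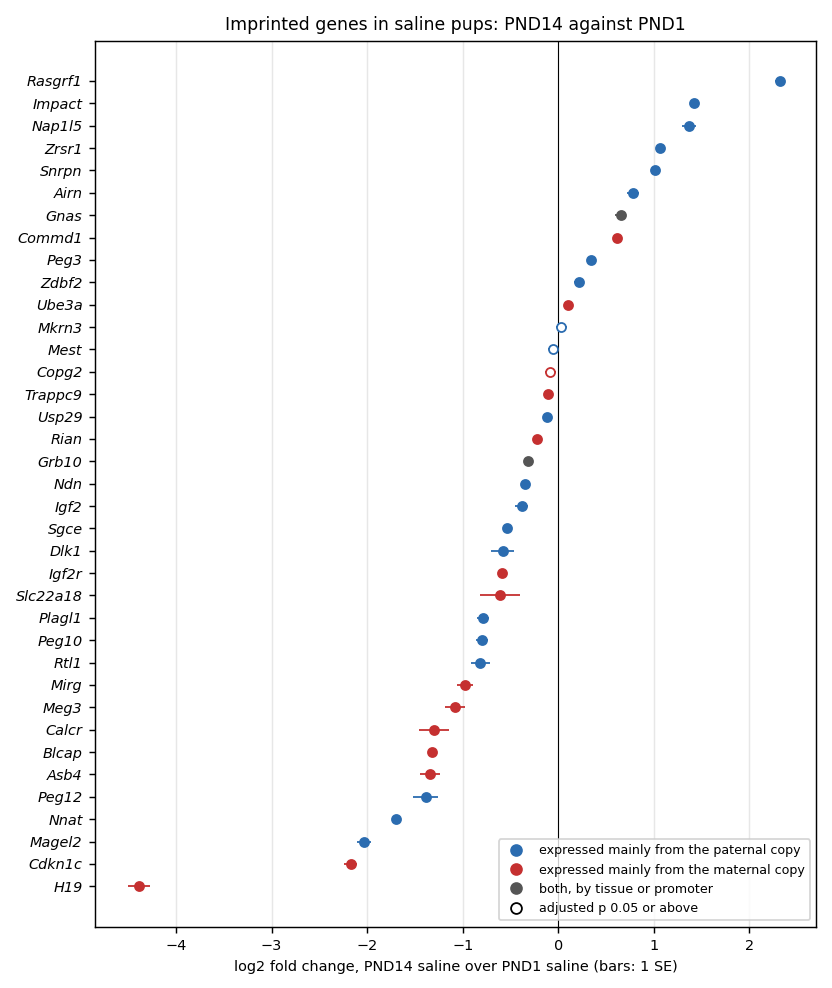
Log2 fold change of each of the 37 imprinted genes tested, PND14 saline over PND1 saline with both codes joined (points), with 1 SE (bars), from edgeR. Colour gives the copy the gene is listed under, and open points did not pass an adjusted p of 0.05. H19 stands lowest at -4.39 and Rasgrf1 highest at 2.32, with 25 genes below 0 and 12 above.

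H19 and Igf2 are neighbours on chromosome 7 under a shared control region. Igf2 encodes a growth factor and is listed under the paternal copy, and H19 is a noncoding RNA listed under the maternal copy. H19 (ENSMUSG00000000031.16, chr7:142575529-142578143, minus strand, GRCm38) ranged from 2.53 to 8.13 CPM with a median of 4.27 in PND14 saline libraries, against 71.96 to 126 with a median of 82.6 in PND1 saline libraries. The groups lay far apart, with every PND14 library below every PND1 library. The log2FC was -4.39 ± 0.12 (SE, adjusted p = 3.07e-31), a level 20.9-fold lower at PND14. Igf2 (chr7:142650766-142666816, minus strand) ranged from 76.9 to 138 CPM with a median of 108 in PND14 saline libraries, against 117 to 168 with a median of 132 in PND1 saline libraries. These groups overlapped, and Igf2 fell by 0.38 ± 0.07 on the log2 scale (adjusted p = 2.03e-06). The PND14 saline pups differed by ID number, with 108.5 to 138 CPM in 4424 and 76.9 to 108 CPM in 4425, and the log2FC was -0.57 without 4424 and -0.21 without 4425, called in both. Of the exon length of Igf2, 62.8% is shared with the predicted gene Gm49394 on the same strand, so its count may be split between them. The exon of H19 holds the hairpin of a miRNA, miR-675, whose mature forms are shown because the H19 count spans their sequence (RefSeq, GRCm38.p6, seed bases 2 to 8 in capitals). Small RNAs were not measured.
mmu-miR-675-5p: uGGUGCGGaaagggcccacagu
mmu-miR-675-3p: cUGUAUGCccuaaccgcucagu

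Cdkn1c, an inhibitor of the cell cycle in the neighbouring cluster of chromosome 7 (chr7:143458339-143461050, minus strand), ranged from 7.23 to 10.6 CPM with a median of 9.51 in PND14 saline libraries, against 37.3 to 53.5 with a median of 40.3 in PND1 saline libraries. The groups did not overlap, and the log2FC was -2.17 ± 0.07 (adjusted p = 2.72e-28). Slc22a18 fell by 0.61 ± 0.21 on the log2 scale (adjusted p = 0.0069), from few counts, and stood at -0.34 without ID number 4424 (adjusted p = 0.22) and at -0.96 without 4425. Both Cdkn1c and Slc22a18 are expressed from the maternal copy. Grb10, an adaptor that restrains insulin and IGF receptors, fell by 0.32 ± 0.04. Igf2r, the receptor that clears IGF2, fell by 0.58 ± 0.04, with 35.1 to 45.5 CPM in PND14 saline libraries and 52.2 to 64.7 in PND1 saline libraries. Airn, the noncoding RNA that runs antisense to it from the paternal copy, rose by 0.79 ± 0.06 (adjusted p = 4.84e-15).

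The Dlk1-Meg3 cluster of chromosome 12 gives protein-coding genes from the paternal copy (Dlk1, a transmembrane relative of Notch ligands, and Rtl1, derived from a retrotransposon) and long noncoding RNAs from the maternal copy (Meg3, Rian and Mirg, hosts of small RNAs). All 5 fell at PND14. Meg3 (chr12:109541001-109571726, plus strand) ranged from 1143 to 2202 CPM with a median of 1508 in PND14 saline libraries, against 2919 to 3809 with a median of 3357 in PND1 saline libraries. The log2FC was -1.08 ± 0.10 for Meg3, -0.98 ± 0.08 for Mirg and -0.82 ± 0.10 for Rtl1. Dlk1 fell by 0.58 ± 0.12, and Rian by 0.22 ± 0.04, the least of the 5, although its groups still did not overlap (669 to 797 CPM in PND14 saline libraries, 803 to 960 in PND1 saline libraries). No source used here states the strand setting of the counting, and 6 miRNA hairpins run antisense within the exon of Rtl1, on the strand of Meg3, so reads of Rtl1 and of that transcript cannot be told apart. Mature forms of 4 of them are shown to place them (RefSeq, GRCm38.p6, seed bases 2 to 8 in capitals); the 11 mature forms carry 11 distinct seeds.
mmu-miR-431-5p: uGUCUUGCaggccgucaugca
mmu-miR-433-3p: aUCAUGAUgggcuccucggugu
mmu-miR-127-3p: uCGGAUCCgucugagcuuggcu
mmu-miR-434-3p: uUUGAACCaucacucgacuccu

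The genes of the Prader-Willi and Angelman region of chromosome 7 moved in different directions. Magel2, a MAGE family protein of hypothalamic neurons, ranged from 4.46 to 5.99 CPM with a median of 5.19 in PND14 saline libraries, against 16.1 to 25.5 with a median of 22.3 in PND1 saline libraries, with no overlap (log2FC -2.03 ± 0.07, adjusted p = 5.8e-27). Ndn, of the same protein family, fell by 0.35 ± 0.04 and the low-level Peg12 by 1.39 ± 0.13. Snrpn rose, with 287 to 338 CPM in PND14 saline libraries against 142 to 169 in PND1 saline libraries (log2FC 1.01 ± 0.03, adjusted p = 7.94e-30). Ube3a, the ubiquitin ligase expressed from the maternal copy in neurons, rose by 0.10 ± 0.04 (adjusted p = 0.032), a call that DESeq2 did not make (0.07, adjusted p = 0.20) and that was lost without ID number 4425. Mkrn3, a ubiquitin ligase known for its part in the timing of puberty, did not pass the test (0.03 ± 0.06, adjusted p = 0.63). With library totals in place of TMM scaling the median of all genes was -0.26, and Ube3a, Mkrn3 and Zdbf2 then lay below 0 at -0.13, -0.20 and -0.02.

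**Figure D2:**
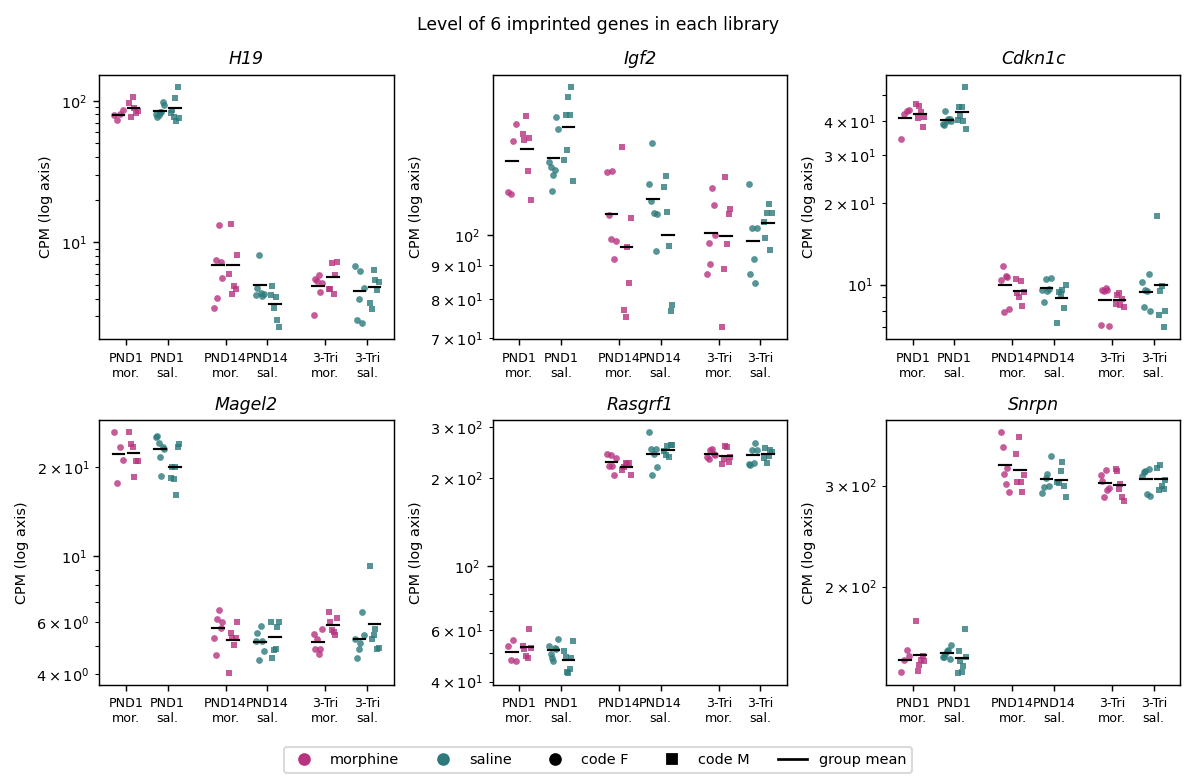
Level of H19, Igf2, Cdkn1c, Magel2, Rasgrf1 and Snrpn in each of the 72 libraries, in CPM on a log axis, by window and drug (mor., morphine; sal., saline), with circles for code F, squares for code M and black lines for group means. In saline pups H19 lies between 2.53 and 8.13 CPM at PND14 and between 71.96 and 126 at PND1, while Rasgrf1 lies between 205 and 288 and between 42.9 and 56.2.

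Nnat, a small membrane protein of the endoplasmic reticulum expressed from the paternal copy, lies within the span of Blcap on chromosome 2 (Nnat chr2:157560078-157562522, plus strand; Blcap chr2:157556362-157571274, minus strand). Nnat ranged from 127 to 158 CPM with a median of 135 in PND14 saline libraries, against 380 to 496 with a median of 447 in PND1 saline libraries (log2FC -1.70 ± 0.04, adjusted p = 1.42e-31). Blcap ranged from 233 to 279 CPM, against 532 to 669 (log2FC -1.32 ± 0.03, adjusted p = 1.15e-31). The 2 levels moved together by library, with Nnat and Blcap at 380 and 532 CPM in PND1 saline code M replicate 8 and at 496 and 669 in code F replicate 4. Their changes are therefore not independent. Whether the Blcap count includes reads of Nnat was not tested. In the Peg10 cluster of chromosome 6 all 4 genes fell: Asb4, a substrate adaptor of ubiquitin ligases, by 1.34 ± 0.11, Calcr, the calcitonin receptor, by 1.3 ± 0.16, Peg10, derived from a retrotransposon, by 0.80 ± 0.06, and Sgce, a sarcoglycan, by 0.54 ± 0.04. Plagl1, a zinc finger transcription factor, fell by 0.79 ± 0.06. Trappc9, of a vesicle tethering complex, fell by 0.11 ± 0.02. Mest and Copg2, which overlap at their ends on opposite strands of chromosome 6, did not pass the test (-0.05 ± 0.05 and -0.08 ± 0.06), and reads of that overlap cannot be assigned without strand.

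Rasgrf1, an exchange factor that activates Ras in neurons (ENSMUSG00000032356.12, chr9:89909908-90026977, plus strand), rose most. It ranged from 205 to 288 CPM in PND14 saline libraries, against 42.9 to 56.2 in PND1 saline libraries (log2FC 2.32 ± 0.04, adjusted p = 9.41e-37). Every PND14 library lay above every PND1 library. The same held for Impact, a regulator of translation, at 1.42 ± 0.04, Nap1l5, a nucleosome assembly protein homologue, at 1.37 ± 0.07, Zrsr1, a splicing factor, at 1.07 ± 0.05, Gnas, the stimulatory G protein subunit, at 0.65 ± 0.06, and Commd1, the host of Zrsr1, at 0.61 ± 0.03. Zrsr1 ranged from 19.5 to 24.2 CPM at PND14 and from 8.53 to 11.7 at PND1 in saline libraries. Commd1 ranged from 27.4 to 32.4 and from 17.6 to 21.3. Their exons share 412 bp on opposite strands, and without strand the rise of Commd1 cannot be told apart from that of Zrsr1. In all, 22 genes had groups that did not overlap, 8 above and 14 below, beside 50.6% of all genes tested. Peg3, a zinc finger protein, rose by 0.35 ± 0.05 and Zdbf2, also a zinc finger protein, by 0.21 ± 0.05, while Usp29, a ubiquitin protease, fell by 0.12 ± 0.04 (adjusted p = 0.0055). The Usp29 call was lost after GC and length correction (-0.06, adjusted p = 0.066).

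Peg3 and Usp29 start 164 bases apart on opposite strands of chromosome 7, and their start windows share 263 bases. The window of 250 bases before to 50 after the start was matched for 31 of the 38 genes (RefSeq, GRCm38.p6, 48 windows). Not matched were H19, Cdkn1c, Rtl1, Sgce, Peg10, Trappc9 and Impact. A search for GGGGCCCC, a palindrome that reads the same on both strands and resembles the site described for Plagl1, found it in 3 of the 48 windows, those of Peg3, Usp29 and Rasgrf1, and in 1.08% of 32851 windows of the same length genome-wide. In Peg3 and Usp29 it is the same copy, which lies in the shared stretch. The windows held a median of 15 CpG dinucleotides, against 7 genome-wide. The 3 windows with the motif are shown, with the motif in capitals (Peg3 chr7:6730370-6730669, minus strand; Usp29 chr7:6730333-6730632, plus strand; Rasgrf1 chr9:89909525-89909824, plus strand). A match is a run of letters and not a measured site.
Peg3: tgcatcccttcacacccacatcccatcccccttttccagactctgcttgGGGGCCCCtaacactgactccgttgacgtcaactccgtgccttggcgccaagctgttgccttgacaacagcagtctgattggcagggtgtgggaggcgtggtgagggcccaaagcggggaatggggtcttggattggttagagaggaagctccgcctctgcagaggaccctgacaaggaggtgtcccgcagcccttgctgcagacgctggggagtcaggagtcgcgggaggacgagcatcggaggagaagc
Usp29: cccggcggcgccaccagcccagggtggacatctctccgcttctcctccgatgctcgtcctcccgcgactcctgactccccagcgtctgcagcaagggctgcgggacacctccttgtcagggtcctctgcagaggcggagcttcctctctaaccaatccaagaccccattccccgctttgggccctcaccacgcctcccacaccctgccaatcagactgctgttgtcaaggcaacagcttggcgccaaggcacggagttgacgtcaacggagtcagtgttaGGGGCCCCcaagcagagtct
Rasgrf1: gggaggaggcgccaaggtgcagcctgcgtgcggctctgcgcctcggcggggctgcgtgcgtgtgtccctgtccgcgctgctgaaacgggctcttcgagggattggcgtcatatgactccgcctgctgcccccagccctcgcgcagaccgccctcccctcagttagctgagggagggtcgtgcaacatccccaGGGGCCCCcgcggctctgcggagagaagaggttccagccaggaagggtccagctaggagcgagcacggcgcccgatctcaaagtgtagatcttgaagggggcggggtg

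Each code was also tested alone. Of 37 genes, 32 were called in code F, beside 80% of all genes, and 32 in code M, beside 80%. The difference of the change between codes was called for 0 of 37 genes and for 0% of all genes by edgeR (0 by DESeq2). At an unadjusted p under 0.05 stood 3 of 37, beside 6.42% of all genes. The smallest p belonged to Igf2, at 0.33 ± 0.13 (adjusted p = 0.73), Peg12, at 0.63 ± 0.28, and Mirg, at -0.35 ± 0.16. The 3-Tri saline pups were as old as the PND14 saline pups and serve as a further set. In 3-Tri saline libraries, against the same PND1 saline libraries, 33 of 37 genes were called, 11 higher and 22 lower, beside 85.9% of all genes, and 19 had groups that did not overlap, beside 46.8%. There H19 fell by 4.19 and Rasgrf1 rose by 2.28 on the log2 scale. Between 3-Tri saline and PND14 saline libraries 0 of 37 genes and 0% of all genes were called by edgeR (0 by DESeq2). Of the 37, 4 had an unadjusted p under 0.05, beside 3.24% of all genes. The smallest p were those of Copg2 at 0.15 ± 0.06, Nnat at 0.10 ± 0.04 and Peg10 at 0.14 ± 0.07.

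These are bulk samples, in which fewer cells of a type and less RNA per cell cannot be told apart. Markers of several cell types moved with age beside the imprinted genes, and their part was not tested. Of all genes tested, 44% were called lower at PND14 and 41.9% higher. The summed level of 8 myelin genes ranged from 4200 to 6140 CPM in PND14 saline libraries and from 181 to 255 in PND1 saline libraries. Of 10 progenitor and dividing cell genes, 8 were lower at PND14 and 0 higher, with summed levels of 117 to 155 CPM against 251 to 352. Astrocyte markers summed to between 3720 and 4860 CPM against 428 to 617, with 6 of 7 higher and 0 lower. Neuron markers summed to between 5560 and 6270 CPM against 2520 to 2740, with 6 of 9 higher and 3 lower. Hypothalamic markers summed to between 88.5 and 114 CPM against 72.4 to 120, with 6 of 11 tested higher and 4 lower. The 12 markers of meninges and fibroblasts, tissue in which Igf2 and H19 are known to be expressed, summed to between 192 and 326 CPM in PND14 saline libraries and to between 305 and 513 in PND1 saline libraries, with 8 lower and 1 higher. The 12 choroid plexus markers summed to between 479 and 645 CPM and to between 309 and 725, with 7 lower and 3 higher at PND14. That sum is mostly Ttr and Enpp2, with means of 276 and 252 CPM in PND14 saline libraries and 330 and 65.9 in PND1 saline libraries.

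Genes that act on imprints or with the imprinted growth genes moved too, beside 85.8% of all genes tested, 44% lower and 41.9% higher. Of 17 tested genes that set, read or maintain imprints, 12 fell and 2 rose at PND14, with a median log2FC of -0.68. Among them Zfp57, the zinc finger protein that protects imprint methylation in the embryo, fell by 3.64 ± 0.06, Dnmt1, the maintenance methyltransferase, by 1.15 ± 0.03, and Setdb1, a histone methyltransferase, by 0.83 ± 0.03, while Dnmt3a, a de novo methyltransferase, rose by 1.24 ± 0.03. Of 16 genes of the insulin-like growth factor axis, 10 fell and 6 rose. Igf2bp1 and Igf2bp2, which bind Igf2 mRNA, fell by 5.41 ± 0.15 and 2.18 ± 0.08, Lin28b, an RNA-binding protein of early development, fell by 2.38 ± 0.09, and Insr, the insulin receptor, fell by 0.74 ± 0.03. Of 47 further imprinted genes tested, 18 fell and 24 rose, with a median of 0.12. Among these, Htr2a, a serotonin receptor, rose by 1.92 ± 0.04, Pon2, a paraoxonase, rose by 1.71 ± 0.04 and Snurf, which shares its transcript with Snrpn, rose by 1.02 ± 0.03, while H13 fell by 0.87 ± 0.03.

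The next question was what morphine before birth did to the set. In PND1 pups coded M, 8 of 37 genes rose in morphine libraries, against saline libraries, and 0 fell, beside 14.4% of all genes called, 6.31% higher and 8.08% lower (edgeR, 21714 genes). They were Zdbf2, Rian, Peg10, Usp29, Copg2, Nap1l5, Asb4 and Ube3a, 4 listed under the paternal copy and 4 under the maternal copy. The median log2FC of the 37 genes was 0.14, against 0.01 over all genes, with 24 above 0 and 13 below. Zdbf2 ranged from 67.4 to 94.4 CPM with a median of 83.7 in the 6 morphine libraries, against 44.0 to 73.1 with a median of 60.7 in the 7 saline libraries (log2FC 0.50 ± 0.09, adjusted p = 0.00095). Peg10 ranged from 137 to 175 CPM with a median of 165, against 86.3 to 152 with a median of 110.0 (0.50 ± 0.10, adjusted p = 0.0023). In both genes the groups overlapped, with the lowest morphine library below the highest saline library.

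Asb4, in the Peg10 cluster of chromosome 6, ranged from 11.4 to 18.99 CPM in morphine libraries coded M and from 6.88 to 14.6 CPM in saline libraries (0.48 ± 0.14, adjusted p = 0.020). Nap1l5 was higher by 0.36 ± 0.10, Usp29 by 0.27 ± 0.06, Ube3a by 0.22 ± 0.07 (adjusted p = 0.043), Copg2 by 0.21 ± 0.05 and Rian by 0.18 ± 0.04 (adjusted p = 0.0017). Rian ranged from 945 to 1049 CPM, against 803 to 960. Morphine replicate 5, where Xist and Ddx3y went against code M, lay apart from the others of its group, with the lowest Ube3a, at 123 CPM against 165 to 190 CPM in the other 5. Peg12, at 2.40 to 2.89 CPM in morphine libraries and 2.93 to 4.06 CPM in saline libraries, was the only gene of the set whose groups did not overlap, beside 2.62% of all genes, and is named after its values were seen. Its log2FC was -0.34 ± 0.14 with an adjusted p of 0.10.

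**Figure D3:**
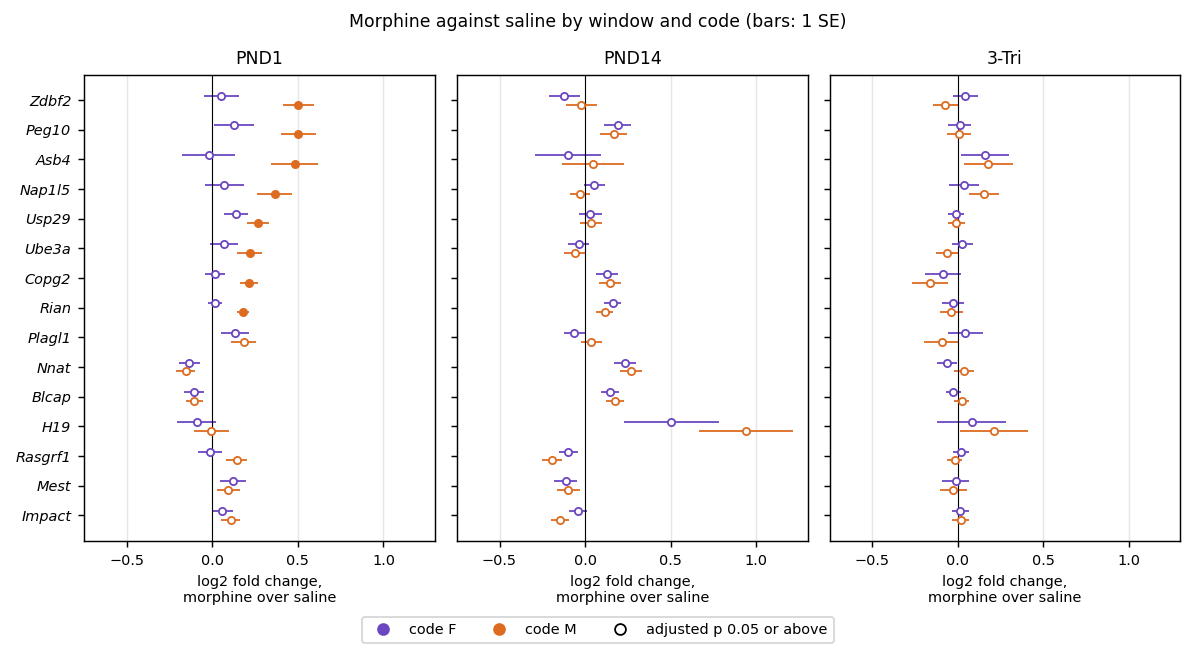
Log2 fold change of the 15 imprinted genes that passed the test in a comparison involving morphine, morphine over saline, in each window by code (points) with 1 SE (bars), from edgeR; filled points passed an adjusted p of 0.05. Filled points appear only in PND1 code M among these comparisons by code, where Zdbf2 and Peg10 both lie at 0.50, and Nnat lies below 0 in PND1 and above 0 in PND14 in both codes.

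In PND1 pups coded F, 0 of 37 genes and 0% of all genes were called by edgeR (0 by DESeq2). At an unadjusted p under 0.05 stood 3 of 37, beside 11.7% of all genes. The smallest p belonged to Meg3 at -0.12 ± 0.05 (adjusted p = 0.31), Mkrn3 at -0.20 ± 0.08 and Nnat at -0.13 ± 0.06. Zdbf2 stood at 72.2, 66.2, 65.0 and 63.1 CPM in the 4 morphine libraries, against 55.5 to 74.2 with a median of 61.7 in the 7 saline libraries, and Peg10 at 158, 103, 152 and 139, against 112 to 137. The difference of the morphine change between codes was called for 0 of 37 genes and 0% of all genes by edgeR (0 by DESeq2). Of the 37, 6 had an unadjusted p under 0.05, beside 5.47% of all genes. Code F minus code M was -0.45 ± 0.14 for Zdbf2, -0.17 ± 0.05 for Rian and -0.23 ± 0.08 for Mirg, each with an adjusted p of 0.87. With the codes joined, 7 genes rose and 1 fell in morphine libraries, beside 16.8% of all genes. Usp29 (0.20 ± 0.05), Peg10 (0.31 ± 0.08), Zdbf2 (0.28 ± 0.07), Rian (0.10 ± 0.03), Copg2 (0.11 ± 0.04), Nap1l5 (0.22 ± 0.08) and Plagl1 (0.16 ± 0.06) rose. Nnat fell by 0.14 ± 0.04, at 347 to 471 CPM in the 10 morphine libraries and 380 to 496 in the 14 saline libraries.

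Several PND1 calls were lost under other settings. After correction of each library for GC content and gene length, 3 genes were called in code M, of which 2, Peg10 (0.46) and Zdbf2 (0.39), were among the 8, and Rian stood at 0.01 and Ube3a at 0.03. With the codes joined, 2 genes were called after correction, of which 1, Peg10, was among the 8, and Rian stood at -0.05. Without saline replicate 11, 5 genes were called in code M. Hindbrain and spinal cord markers summed to between 39.4 and 186 CPM in the PND1 morphine libraries coded M and to between 5.57 and 87.3 in the saline libraries, with 3 of 18 higher, and with their level as a covariate 5 genes were called, of which 4 were among the 8. Meningeal markers summed to between 270 and 394 CPM and to between 305 and 513, with 3 of 12 lower. Without the 4 PND1 libraries whose sex genes went against the code, 8 genes were called in code M, 6 of them the same.

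The PND14 comparison asked the same of morphine given after birth. In PND14 pups, both codes joined, Nnat, Blcap and Rian rose in morphine libraries and 0 of 37 genes fell, beside 1.69% of all genes called (edgeR, 19636 genes). Nnat ranged from 144 to 186 CPM with a median of 172 in the 12 morphine libraries, against 127 to 158 with a median of 135 in the 12 saline libraries (log2FC 0.25 ± 0.05, adjusted p = 0.0068). Blcap had a median of 281 CPM and a highest value of 294, against 243 and 279 (0.16 ± 0.04, adjusted p = 0.024). Its level moved together with that of Nnat by library here too, so the Blcap call does not add an independent gene. Whether the Blcap count includes reads of Nnat was not tested. Rian ranged from 760.1 to 902 CPM with a median of 829.1, against 669 to 797 with a median of 759 (0.14 ± 0.04, adjusted p = 0.040). In each of the 3 genes the ranges overlapped. H19, named after its values were seen, had the largest change in size of the 37 genes, 0.72 ± 0.20, and did not pass the test (adjusted p = 0.052), with 3.46 to 13.5 CPM in morphine libraries and 2.53 to 8.13 in saline libraries. Morphine libraries M replicate 2 and F replicate 10 had the most H19, at 13.5 and 13.3 CPM, and the other 10 had at most 8.16. The same 2 libraries had the highest sums of the 12 meningeal markers, at 782 and 1140 CPM, against 167 to 329 in the other 10 morphine libraries and 192 to 326 in saline libraries. Without these 2 libraries H19 stood at 0.45 (adjusted p = 0.13), and 1 gene, Nnat, was called (0.26, adjusted p = 0.021). With the meningeal markers as a covariate H19 stood at 0.45 (adjusted p = 0.027).

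By code, edgeR called 0 of 37 genes in PND14 code F, beside 0% of all genes (0 by DESeq2). In code M it called 0, beside 0.28% (2 by DESeq2). An unadjusted p under 0.05 was reached by 5 of 37 in code F, beside 10.5% of all genes. In code M 9 of 37 reached it, beside 9.29%. In code F the smallest p were those of Nnat at 0.23 ± 0.07, Rian at 0.16 ± 0.05 and Blcap at 0.15 ± 0.05. In code M they were those of Nnat at 0.27 ± 0.06 (adjusted p = 0.074), Blcap at 0.17 ± 0.05 and H19 at 0.94 ± 0.28. The difference between codes was called for 0 of 37 genes and 0% of all genes by edgeR (0 by DESeq2). Of the 37, 1 had an unadjusted p under 0.05, beside 3.44% of all genes. The smallest p were those of Commd1 at 0.14 ± 0.06, Zrsr1 at 0.14 ± 0.07 and Mirg at 0.25 ± 0.16. With the codes joined, 0 of 37 genes were called without ID number 4424, with Nnat at 0.29, Blcap at 0.18 and Rian at 0.15, or without 4425, with 0.22, 0.14 and 0.13, both saline numbers of 6 pups each. Without 4423, a morphine number, only Nnat was called (0.30), with Blcap at 0.19 and Rian at 0.16. Without 4422, the other morphine number, Nnat was called (0.20), and Blcap (0.13) and Rian (0.12) were not. With choroid plexus markers as a covariate 0 genes were called, with Nnat at 0.22 (adjusted p = 0.072). The lowest and the median sum of these markers were 369 and 514 CPM in morphine libraries and 479 and 586 in saline libraries, with 1 of 12 lower. Of 8 myelin genes 6 were lower in PND14 morphine libraries, at summed levels of 2760 to 5240 CPM, against 4200 to 6140, and their part was not tested.

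**Figure D4:**
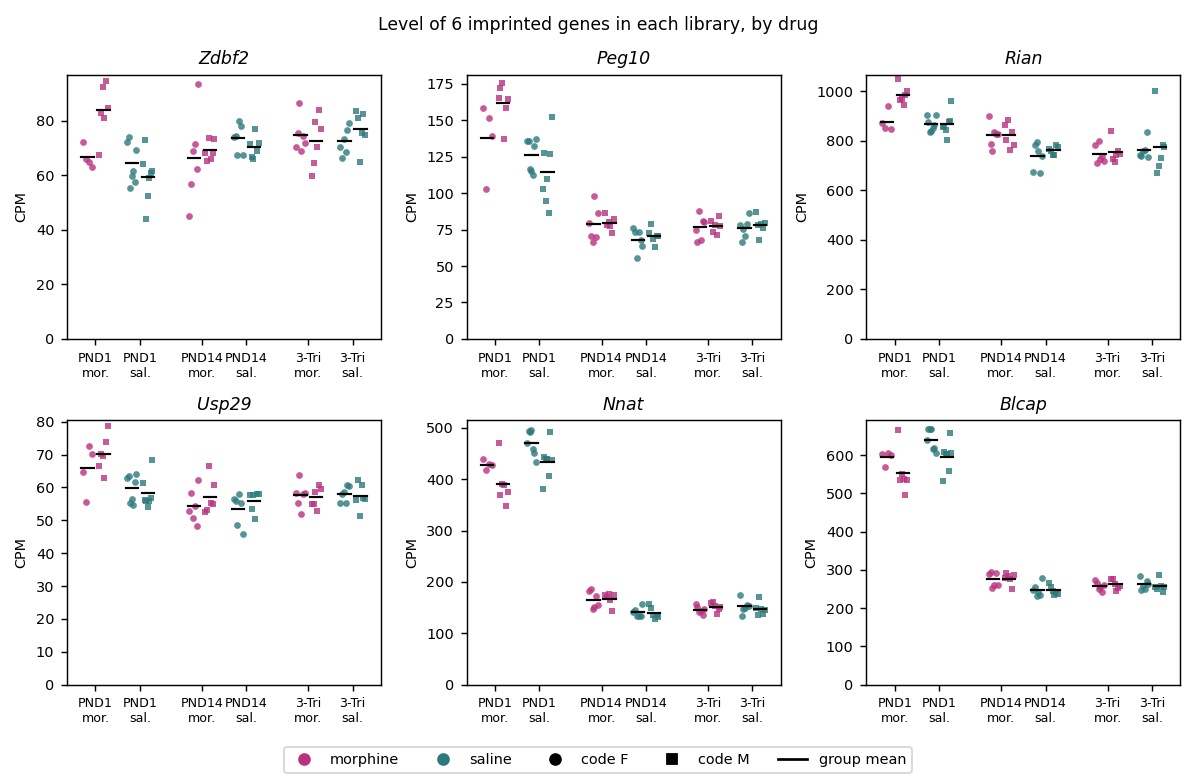
Level of Zdbf2, Peg10, Rian, Usp29, Nnat and Blcap in each of the 72 libraries, in CPM, by window and drug (mor., morphine; sal., saline), with circles for code F, squares for code M and black lines for group means. In PND14 Nnat lies between 144 and 186 CPM in morphine libraries and between 127 and 158 in saline libraries, and in PND1 between 347 and 471 and between 380 and 496.

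In 3-Tri pups, exposed before and after birth, no imprinted gene passed the test. Of 36 genes tested, 0 were called in code F, in code M and with the codes joined (edgeR, 0 by DESeq2). Beside them stood 0% of all genes in each of the 3 comparisons. An unadjusted p under 0.05 was reached by 0 of 36 in each, beside 2.41%, 4.98% and 4.88% of all genes. The smallest p were those of Calcr at 0.33 ± 0.17, Dlk1 at 0.18 ± 0.14 and Asb4 at 0.16 ± 0.14 in code F, and of Gnas at -0.16 ± 0.09, Nap1l5 at 0.15 ± 0.09 and Copg2 at -0.16 ± 0.10 in code M. With the codes joined they were those of Copg2 at -0.12 ± 0.07, Asb4 at 0.17 ± 0.10 and Calcr at 0.20 ± 0.12. Nnat ranged from 135 to 160.3 CPM in morphine libraries and from 133 to 175 in saline libraries. The Gnas value turned to 0.04 without ID number 4431, whose libraries include a shallow one, 3-Tri saline replicate 1 coded M. The difference between codes was called for 0 of 36 genes and 0% of all genes (edgeR, 0 by DESeq2). An unadjusted p under 0.05 was reached by 0 of 36, beside 2.32% of all genes. The smallest p were those of Nnat at -0.10 ± 0.08, Zdbf2 at 0.12 ± 0.10 and Ndn at -0.06 ± 0.06. Sex genes went against the code in 12 of the 24 3-Tri libraries, so these comparisons by code do not compare the sexes.

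The morphine change was then compared between windows in a fit of all 72 libraries. PND1 minus PND14, 8 of 37 genes were called, 5 above 0 and 3 below, beside 13.3% of all genes. Nnat stood at -0.39 ± 0.06 (adjusted p = 2.38e-05), Blcap at -0.26 ± 0.05 (adjusted p = 0.00032) and H19 at -0.77 ± 0.20 (adjusted p = 0.0056). H19 stood at -0.52 (adjusted p = 0.046) without the 2 PND14 morphine libraries that had the most H19 and the highest meningeal marker sums, at -0.47 (adjusted p = 0.029) with those markers as a covariate, and at -0.59 (adjusted p = 0.11) without ID number 4425. Across the 4 PND14 ID numbers left out in turn, Nnat and Blcap were called each time, and 3 genes were called without 4425 and 5 without 4422. The levels of Nnat and Blcap moved together by library, so the Blcap call does not add an independent gene. Above 0 stood Zdbf2 at 0.35 ± 0.09, Mest at 0.22 ± 0.08, Rasgrf1 at 0.21 ± 0.06, Ube3a at 0.20 ± 0.07 and Impact at 0.18 ± 0.05. Nnat was thus lower in PND1 morphine libraries and higher in PND14 morphine libraries, each against its own saline libraries. PND1 minus 3-Tri, Usp29 (0.22 ± 0.06), Peg10 (0.31 ± 0.09) and Zdbf2 (0.29 ± 0.09) were called, beside 8.43% of all genes, and 0 genes were called without ID number 4433 or 4429. PND14 minus 3-Tri, Nnat was called at 0.26 ± 0.06 (adjusted p = 0.049), beside 0.182% of all genes, and Rian at 0.17 ± 0.05 and Copg2 at 0.26 ± 0.08 had the next smallest p. The Nnat call was lost with DESeq2 size factors (adjusted p = 0.056), with library totals, with no filter, with the meningeal covariate, without the 2 libraries with the most H19, without shallow libraries, without those with discordant sex genes and without 7 of the 8 ID numbers in turn, at values of 0.21 to 0.30, and it held by DESeq2 (adjusted p = 0.016) and without 4423 (0.32). After GC and length correction 5 genes were called in the first of these comparisons, 3 of the 8 among them, with Nnat at -0.23, Blcap at -0.21 and H19 at -0.66, and 0 genes in the second. The comparisons share libraries and are not independent of each other.

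Between gender codes, with the drugs joined, 0 of 37 genes were called in PND1, beside 4.73% of all genes (edgeR, 3 of 37 by DESeq2). Of the 37, 8 had an unadjusted p under 0.05, beside 21.9% of all genes. The smallest p were those of Meg3 at 0.10 ± 0.03 (adjusted p = 0.060), Rian at -0.09 ± 0.03 and Nnat at 0.12 ± 0.04, code F minus code M. In PND14 0 of 37 genes were called, beside 0.107% of all genes (0 by DESeq2). Of the 37, 2 had an unadjusted p under 0.05, beside 4.97% of all genes. The smallest p were those of Peg12 at 0.41 ± 0.15, Copg2 at 0.12 ± 0.05 and Sgce at 0.10 ± 0.05. In 3-Tri 0 of 36 were called, beside 0% of all genes (0 by DESeq2). An unadjusted p under 0.05 was reached by 0 of 36, beside 2.31% of all genes. The smallest p were those of Sgce at -0.07 ± 0.04, Magel2 at -0.13 ± 0.07 and Gnas at -0.07 ± 0.06. Without the 4 PND1 libraries whose sex genes went against the code, 3 genes were called in PND1. In 3-Tri the sex genes went against the code in 12 of 24 libraries, so the comparison of codes there cannot show a difference between the sexes.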

How the data were processed

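The set was listed by gene symbol, but it and the gene lists were chosen with earlier results of these data known. The authors trimmed reads with Trim Galore 0.6.6, aligned them to mm10 with HISAT2 2.2.1, removed duplicates with Picard and deposited whole-number counts per gene from featureCounts 2.0.1 with a GENCODE annotation. The strand setting is not given in the sources used here. The deposited tables of the authors' own DESeq2 comparisons hold fold changes and p-values, which were not used; only their pairing of IDs with gene names was read, ignoring case. Gene spans, types and exon lengths came from GENCODE (GRCm38).

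Counts were tested with edgeR 4.0.16 (R 4.3.3) by glmQLFit and glmQLFTest with TMM scaling, after filterByExpr with a minimum count of 10 and a minimum total of 15, in 1 fit of the 38 saline libraries for age, 1 fit for each window for morphine, and 1 fit of all 72 libraries for differences between windows. P-values were adjusted by Benjamini-Hochberg over all genes tested, and a gene was called at an adjusted p under 0.05. SE is that of the log2 fold change, taken as its size divided by the square root of the F statistic of the test. Scripts were tested on simulated data. In the age comparison any gene of the set past the filter could be named, in each other comparison those called or, where fewer than 3 were, those with the 3 smallest p, and of each further list at most 4 by smallest p. Libraries whose Xist or Ddx3y exceeded 25% of the other code's median were counted as against their code. No library pair of a group agreed within sampling noise (lowest chi-square per gene 1.64). Alternatives were other scalings, no filter, DESeq2 1.42.0, limma 3.58.1 with the ID number as a random effect, GC and length correction (lowess span 0.3, prior count 2), marker levels as covariates, a replicate block, and leaving out libraries or ID numbers. For differences between windows, the meningeal covariate and the leaving out of ID numbers were chosen after seeing the data, as was leaving out the 2 PND14 morphine libraries with the most H19. Figures were drawn with matplotlib 3.10.9.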

Additional observations from a re-analysis of the deposited data

Results flagged for a closer look

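In groups of 4 to 7 libraries, 10 of 92 gene and group combinations checked held a library far from the others of its group by Dixon's test, which chance alone gives in about 1 of 20. In PND1 morphine code M, replicate 5 had the highest Nnat, at 470 CPM with the next library at 391, and the lowest Ube3a, at 123 CPM with the next at 165. In PND1 saline code F, replicate 5 had the highest Copg2, at 796 CPM with the next at 713. In PND14, Nnat was lowest in morphine code M replicate 8, at 144 CPM with the next at 165, and H19 was highest in saline code F replicate 6, at 8.13 CPM with the next at 4.77. In 3-Tri, Dlk1 was highest in morphine code M replicate 3, at 24.8 CPM with the next at 19.5, and Nap1l5 was lowest in saline code M replicate 9, at 116 CPM with the next at 178. The shallow library 3-Tri saline code M replicate 1 had the highest Asb4 (6.69 CPM, next 4.8), Gnas (1230 CPM, next 783) and Copg2 (1064 CPM, next 708).

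The morphine change differed between windows for 12 gene and window combinations by edgeR's test of the difference. PND1 minus PND14 gave -0.77 for H19, -0.39 for Nnat, -0.26 for Blcap, 0.18 for Impact, 0.20 for Ube3a, 0.21 for Rasgrf1, 0.22 for Mest and 0.35 for Zdbf2 on the log2 scale. PND1 minus 3-Tri gave 0.22 for Usp29, 0.31 for Peg10 and 0.29 for Zdbf2, and PND14 minus 3-Tri gave 0.26 for Nnat. The causes were not tested.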

How the results depend on the processing

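Of 5011 recomputed values for 211 gene results, 4739 kept their direction and side of the threshold, 235 lost the call, 25 gained one and 12 changed sign. Of 439 recomputed counts of called genes, 380 stayed within 1.5 times the reported count.

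In PND1 code M (8 genes) 3 genes were called after GC and length correction, 4 with a replicate block, 0 with both, 5 with hindbrain markers as a covariate, and 5 to 12 with a library left out, 5 being without saline replicate 11. With the codes joined (8 genes) 4 were called with no filter, 2 after GC and length correction, 4 with the replicate block as well, 5 with meningeal markers as a covariate, and 5 to 9 with a library left out. The 5 was reached without any of morphine code F replicates 1, 3 and 4, morphine code M replicates 8, 9 and 10, saline code F replicates 1, 3 and 4, or saline code M replicates 10 and 11. Between codes in PND1 (0 genes), 3 were called by DESeq2 and 3 without libraries whose sex genes went against the code.

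In PND14 code M (0 genes) DESeq2 called 2, a fit of only the compared groups 2, and GC and length correction alone or with the block, ID number as a random effect in limma, and meningeal or hindbrain markers as a covariate 1 each. Without an ID number the count was 0 to 1, and it was 1 without 4422. With the codes joined (3 genes) DESeq2 called 6, limma with the ID number 5, the replicate block 1, choroid plexus markers as a covariate 0, and leaving out an ID number gave 0 to 3, and 1 was called without the 2 morphine libraries with the most H19. PND1 minus PND14 (8 genes) gave 5 after GC and length correction and 3 to 7 with an ID number left out. PND1 minus 3-Tri (3 genes) gave 0 after that correction and 0 without libraries whose sex genes went against the code, and 0 to 3 with an ID number left out. PND14 minus 3-Tri (1 gene) gave 0 with DESeq2 size factors, 0 with library totals, 0 with no filter, 0 without shallow libraries, 0 without libraries whose sex genes went against the code, 0 without the 2 PND14 morphine libraries with the most H19, 0 with meningeal markers as a covariate and 0 to 1 with an ID number left out.

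Signs changed with library totals for Mkrn3 (-0.20), Ube3a (-0.13) and Zdbf2 (-0.017, and -0.044 in code F) between PND14 and PND1 saline, and for Ube3a between 3-Tri and PND1 saline (-0.12). Under GC and length correction Rian turned to -0.046 in PND1 with the codes joined, and with the replicate block as well to -0.093, and to -0.072 in code M. Rian between codes in PND1 turned to 0.029, and Ube3a in PND1 minus PND14 to -0.00093. Gnas in 3-Tri code M ran from -0.25 to 0.036 with an ID number left out, and between codes in 3-Tri it turned to 0.0055 without shallow libraries. The cause was not tested.

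For same-numbered libraries no link beyond the number is given, and whether they shared a processing step was not tested. Their deviations correlated from -0.231 to 0.0971 in PND1 code F and from -0.061 to 0.186 in PND1 code M. The range was -0.203 to 0.119 in PND14 and -0.0824 to 0.296 in 3-Tri. The lowest depths were 4407544 counts in PND14 and 3113919 in 3-Tri, which limits low genes such as Slc22a18 and Phlda2.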
